A study of Rattus norvegicus with 4 samples.

Results

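The enzymes that activate long-chain fatty acids and break them down in mitochondria were followed in rat liver with a tied common bile duct. The probes were those whose single gene symbol in the array platform's annotation was Acsl1, Cpt1a, Acadl, Echs1, Hadha or Hadhb, which gave 12 probes for 6 of the 958 named genes on the array. Acadl had 3 probes, Echs1 had 1, and each of the other 4 genes had 2. The study compared male Sprague-Dawley rats of 250 to 300 g, 12 h after ligation of the common bile duct, with rats whose duct was exposed in a sham operation but not tied. Both groups were kept on the same chow, had surgery under ether and had the right lateral lobe frozen, and the total RNA from 3 rats of a group was pooled ahead of poly(A) selection and labelling. Each of 4 two-colour cDNA arrays carried both mixtures, with the ligation RNA in Cy5 on arrays 1 and 3 and in Cy3 on arrays 2 and 4. Nothing in the labels says that the 4 arrays came from separate mixtures, so p-values measure the spread between arrays, which may be technical, and not the spread between animals.

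A fatty acid enters metabolism when an acyl-CoA synthetase joins it to coenzyme A. A carnitine transferase on the outer mitochondrial membrane then commits the long-chain acyl group to import, and a cycle of dehydrogenation, hydration, a further dehydrogenation and thiolysis shortens it inside. In the liver this pathway feeds ketone body synthesis during fasting, and the nuclear receptor PPAR-alpha, paired with a retinoid X receptor, is its best known transcriptional activator.

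All values are log ratios as deposited, taken on each array as ligation over sham and as logarithms of base 2. That direction was taken from the order of the channels in the labels, and neither it nor the base is stated or settled here. Across probes the deposited values of arrays of opposite dye orientation correlated at -0.45 to -0.28, and those of the same orientation at 0.93 and 0.94. The negative correlations turn positive under the reading as Cy5 over Cy3, in which the arrays with the ligation RNA in Cy3 have their sign turned. That follows from the change of sign alone and does not settle the direction. Read instead as Cy5 over Cy3, the sign of the fitted ratio turned for 10 of the 12 probes, with Acsl1 at 0.53 and 0.69. The calls then became 8 probes higher and 3 lower, where 47.9% of all probes were called higher and 33.7% lower. Every "lower" or "higher" below therefore rests on the first reading. The median of the 1936 values of an array was subtracted from that array, and a ratio of 0 therefore means a change equal to that of the median spot. The arrays give no level of a transcript in either mixture, so the presence of the enzymes or of liver markers could not be checked as such.

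With each probe fitted separately, 7 of the 12 probes were lower in the ligated mixture, 1 was higher and 4 did not pass (limma, Benjamini-Hochberg adjusted p under 0.05 over 1648 probes). Over all 1648 probes 16.1% were called lower and 11.8% higher. The median ratio of the 12 probes was -0.44 on the log2 scale, against -0.01 (-0.011) over all probes tested. Each of the 6 genes had at least 1 probe called lower, but 5 of them had more than 1 probe that could be called. The share of all named genes with such a probe is not given here. By gene means 4 of the 6 were lower, where 15.4% of the 958 named genes were. Acsl1 stood about 3.9-fold lower by both of its probes (3.90-fold and 3.86-fold), while the lower probes of the other 5 genes lay between 1.34-fold and 1.57-fold lower. In 4 of the 5 genes with more than 1 probe, probes of the same gene differed from each other past the test, which made 4 of their 7 pairs, where 23.3% of the 699 pairs of probes with the same symbol over the whole array differed. Without array 4 only 1 of these pairs passed, that of Hadha. Read as Cy5 over Cy3, 6 of the 7 pairs differed, where 51.1% of all pairs did. As ligation over sham, the differing pairs of Cpt1a, Acadl and Hadhb changed sign with the dye. The probe called lower was the higher of its pair on arrays 1 and 3 and the lower on arrays 2 and 4. Their dye terms (1.22, 0.73 and 0.95) were larger in size than their fitted differences (-0.70, -0.49 and -0.41). The Hadha difference was negative on every array. In the fit of pairs, all 7 pairs had the same standard error (0.12). Their p-values and intervals thus do not use each pair's own spread. Without the dye term in the model none of the 12 probes was called (limma, lowest adjusted p = 0.0862), and 3 had an unadjusted p under 0.05. Without centring 11 of the 12 were called lower and none higher, but so were 80.7% of all probes, and 1.88% were called higher.

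**Figure D1:**
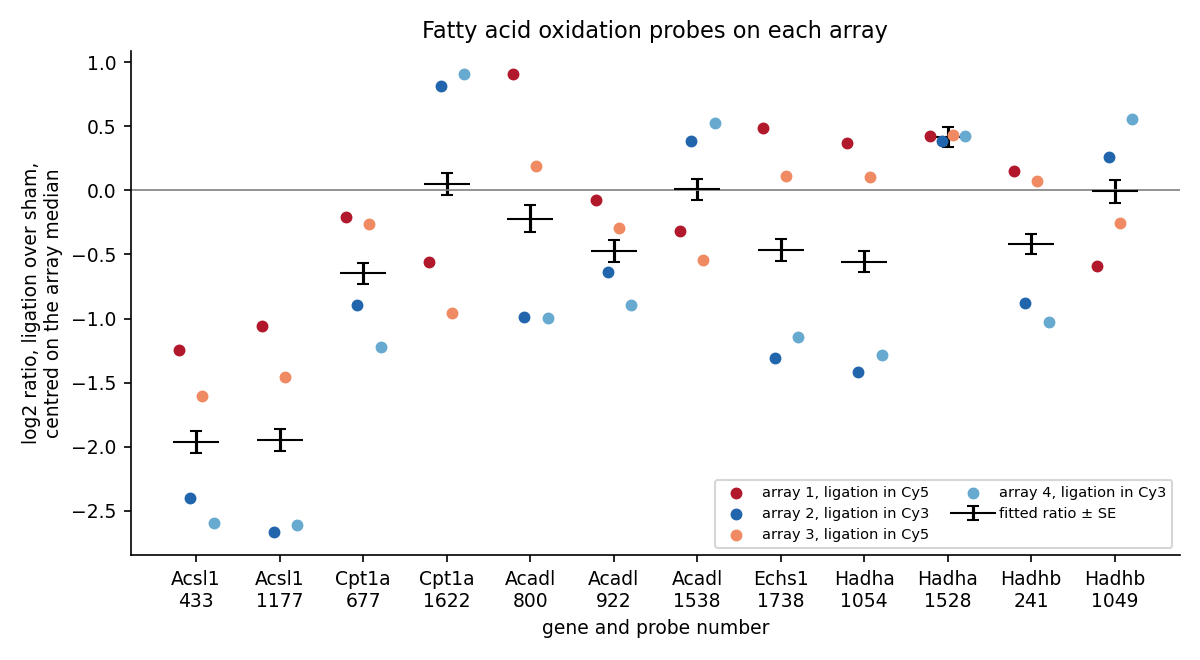
Centred log2 ratio of ligation over sham (y axis) for each of the 12 probes (x axis), as a point per array coloured by the dye of the ligation RNA, with the fitted ratio and its standard error in black. Both Acsl1 probes lie below -1 on every array, and the probes of Hadha lie on opposite sides of 0 by their fitted ratios.

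Acsl1 is the main long-chain acyl-CoA synthetase of liver and adipose tissue and carries out the activation step. Its probe 433 had centred log2 ratios of -1.25, -2.40, -1.61 and -2.60 on arrays 1 to 4. Its probe 1177 had -1.06, -2.67, -1.45 and -2.61. Both probes were well below 0 on each array, and both were lower where the ligation RNA carried Cy3. The fitted ratios were -1.96 ± 0.09 and -1.95 ± 0.09 (SE, 4 arrays), with limma adjusted p = 8.52e-10 for each. The probes were the fifth and sixth lowest of the 1648, and on single arrays their ranks ran from 4 to 8 from the bottom. Read as Cy5 over Cy3, probe 1177 (0.69) ranked 287 and probe 433 (0.53) ranked 497 from the top of the 1648, and Hadha probe 1054 (0.79), Acadl probe 800 (0.77) and Echs1 (0.76) were above both. Under that reading the Acsl1 probes ranked 1643 to 1645 from the top on arrays 1 and 3 and 4 to 8 from the top on arrays 2 and 4. As ligation over sham, on each of the 4 arrays both Acsl1 probes were lower than all 10 probes of the other 5 genes. The 2 probes differed by -0.01 (-0.015, 95% interval -0.25 to 0.22, limma adjusted p = 0.96 over the 699 pairs).

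The values as deposited, before centring, were steadier between dyes for Acsl1. Probe 1177 was deposited at -2.31, -2.24, -2.41 and -2.35 on arrays 1 to 4, a standard deviation of 0.069. Probe 433 was deposited at -2.51, -1.97, -2.56 and -2.34. The medians of the 4 arrays were -1.26, 0.43, -0.96 and 0.26, so the medians moved with the dye far more than either probe did. Without centring, the fitted ratios of the probes were -2.34 and -2.33.

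By the distance between centred profiles over the 4 arrays, with probes averaged per gene, the genes nearest to Acsl1 (gene mean -1.96) were the drug-metabolising cytochrome Cyp1a2 (root mean square difference 0.23, ratio -1.86), the organic anion transporter Slc22a8 (0.50, ratio -1.47), the mitochondrial outer membrane protein Tspo (0.57, ratio -1.41), carbonic anhydrase Car3 (0.60, ratio -2.55) and the receptor Notch3 (0.63, ratio -1.33). Of these 5, Cyp1a2 was the closest, and none was another enzyme of fatty acid oxidation. The gene mean of Acsl1 ranked 2 from the lowest of the 958 named genes, of which 6 were the enzymes followed here. The absence of the others from 5 genes therefore carries little weight.

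Cpt1a is the liver form of the carnitine palmitoyltransferase that commits acyl groups to mitochondrial import and is inhibited by malonyl-CoA. Its probe 677 had -0.21, -0.89, -0.26 and -1.23 on arrays 1 to 4 and was below 0 on each. Its probe 1622 had -0.56, 0.81, -0.96 and 0.91, negative on both arrays with the ligation RNA in Cy5 and positive on both others. Probe 677 was called lower (-0.65 ± 0.08, limma adjusted p = 4.06e-05), the largest fall after Acsl1, and probe 1622 did not pass (0.05 ± 0.09, adjusted p = 0.768). Probe 677 minus probe 1622 was -0.70 (95% interval -0.93 to -0.47, limma adjusted p = 7.28e-08). By array it was 0.35, -1.71, 0.69 and -2.13, positive on the Cy5 arrays and negative on the others. That difference was -0.59 with adjusted p = 0.0532 without array 4. With both probes averaged the gene was at -0.30 ± 0.08 (limma adjusted p = 0.00942), which no longer passed when array 3 (-0.24, adjusted p = 0.0546) or array 4 (-0.27, adjusted p = 0.0823) was left out, whereas the call of probe 677 alone was kept whichever array was left out.

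Acadl, the long-chain acyl-CoA dehydrogenase, catalyses the opening step of the cycle. Its probe 922 had -0.08, -0.63, -0.29 and -0.90 on arrays 1 to 4, below 0 on each. Its probe 800 had 0.91, -0.98, 0.19 and -0.99, and its probe 1538 had -0.32, 0.38, -0.55 and 0.52. Probe 800 was thus positive on the Cy5 arrays and negative on the Cy3 arrays, and probe 1538 the reverse. Only probe 922 was called, at -0.47 ± 0.08 (limma adjusted p = 0.000611), while probe 800 was at -0.22 ± 0.10 (adjusted p = 0.147) and probe 1538 at 0.01 ± 0.08 (0.011, adjusted p = 0.965). Of the 3 pairs of probes, 922 minus 1538 differed (-0.49, 95% interval -0.72 to -0.25, limma adjusted p = 0.000349), but not when array 4 was left out (-0.38, adjusted p = 0.135). Pair 800 minus 922 (0.26, interval 0.02 (0.022) to 0.49, adjusted p = 0.114) and pair 800 minus 1538 (-0.23, interval -0.46 to 0.0028, adjusted p = 0.161) did not pass. By array, 922 minus 1538 was 0.24, -1.02, 0.26 and -1.42, so its sign changed with the dye. Array 1 read probe 800 higher than array 3 by 0.72, the widest gap between arrays of the same dye orientation among the 12 probes. Without array 1 probe 800 was called lower as well (-0.40, limma adjusted p = 0.00212). Averaged over its 3 probes, Acadl was at -0.23 ± 0.08 and just missed the threshold (limma adjusted p = 0.0532); without array 1 it passed (-0.32, adjusted p = 0.0158).

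Echs1, the short-chain enoyl-CoA hydratase, adds water in the next step. Its only probe, 1738, had 0.49, -1.31, 0.12 and -1.14 on arrays 1 to 4, so the centred values changed sign with the dye. Its deposited values, -0.77, -0.88, -0.84 and -0.88, had a standard deviation of 0.053, the smallest of the 12 probes. The fitted ratio was -0.46 ± 0.09 (limma adjusted p = 0.000973), a 1.38-fold fall whose call was kept whichever array was left out.

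Hadha and Hadhb encode the alpha and beta subunits of the mitochondrial trifunctional protein, a complex on the inner membrane that carries out the last steps for long-chain substrates. The alpha subunit holds the hydratase and the hydroxyacyl-CoA dehydrogenase, and the beta subunit the thiolase. In the RefSeq promoter table of rat assembly GRCr8 the annotated starts of the genes lie 301 bases apart on opposite strands of chromosome 6. The windows of 250 bases before and 50 after each start overlap by 200 bases. Both windows are shown because they share those 200 bases. Each is written 5′ to 3′ on its own gene's strand, and capitals mark the shared bases. Hadha is at chr6:31907551-31907850 on the plus strand and Hadhb at chr6:31907451-31907750 on the minus strand.
Hadha: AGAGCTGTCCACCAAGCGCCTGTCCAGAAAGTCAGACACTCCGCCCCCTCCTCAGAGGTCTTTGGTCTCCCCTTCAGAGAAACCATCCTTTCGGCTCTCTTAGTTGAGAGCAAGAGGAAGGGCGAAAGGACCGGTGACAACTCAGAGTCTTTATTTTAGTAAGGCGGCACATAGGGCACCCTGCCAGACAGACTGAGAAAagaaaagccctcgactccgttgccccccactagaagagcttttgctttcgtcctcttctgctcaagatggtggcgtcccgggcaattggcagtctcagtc
Hadhb: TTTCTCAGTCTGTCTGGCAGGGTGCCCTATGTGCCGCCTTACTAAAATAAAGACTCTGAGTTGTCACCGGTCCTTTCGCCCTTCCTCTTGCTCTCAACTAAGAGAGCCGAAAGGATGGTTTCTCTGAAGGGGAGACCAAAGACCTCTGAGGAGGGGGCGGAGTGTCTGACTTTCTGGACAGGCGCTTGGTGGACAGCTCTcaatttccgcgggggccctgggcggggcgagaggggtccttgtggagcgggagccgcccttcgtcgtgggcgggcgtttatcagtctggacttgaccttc

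Hadha probe 1054 had 0.37, -1.42, 0.10 and -1.29 on arrays 1 to 4. Hadha probe 1528 had 0.43, 0.38, 0.43 and 0.43, above 0 on each array and with the smallest spread of the 12 probes. The same gene was therefore called in both directions, lower by probe 1054 (-0.56 ± 0.08, limma adjusted p = 0.000136) and higher by probe 1528 (0.42 ± 0.08, limma adjusted p = 0.000913). Probe 1054 minus probe 1528 was -0.98 (95% interval -1.21 to -0.74, limma adjusted p = 1.26e-14), a larger difference in size than 96.4% of the 699 pairs, and the call was kept whichever array was left out. The call of probe 1528 depended on the zero point, since without centring it was at 0.04 (0.036, adjusted p = 0.721), whereas probe 1054 was then at -0.94. Averaged over both probes, Hadha was at -0.07 ± 0.07 (limma adjusted p = 0.57), which hides the opposite calls.

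Hadhb probe 241 had 0.15, -0.88, 0.07 and -1.03 on arrays 1 to 4, and Hadhb probe 1049 had -0.59, 0.26, -0.26 and 0.56. Probe 241 was positive on the Cy5 arrays and negative on the others, and probe 1049 showed the reverse. Probe 241 was called lower (-0.42 ± 0.08, limma adjusted p = 0.001), and probe 1049 did not pass (-0.0068 ± 0.09, adjusted p = 0.974). As probe 241 minus probe 1049, the probes differed by 0.74, -1.14, 0.33 and -1.59 on arrays 1 to 4. Their difference was -0.41 (95% interval -0.65 to -0.18, limma adjusted p = 0.00316), which did not pass with array 2 left out (-0.53, adjusted p = 0.0757), with array 3 left out (-0.31, adjusted p = 0.0582) or with array 4 left out (-0.30, adjusted p = 0.317). The gene mean of -0.21 ± 0.07 (limma adjusted p = 0.0438) did not pass with array 1 left out (-0.18, adjusted p = 0.112), with array 2 left out (-0.20, adjusted p = 0.248) or with array 4 left out (-0.23, adjusted p = 0.155). The difference between the Hadhb probes was larger in size without array 2 than with all arrays, and the cause of that lost call was not tested. Between the subunits, the 95% interval of Hadha probe 1054 (-0.74 to -0.38) overlapped that of Hadhb probe 241 (-0.59 to -0.25).

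In the order of their lowest probes, the genes ran from Acsl1 (95% intervals of its probes from -2.15 to -1.76) through Cpt1a (probe 677, -0.83 to -0.47), Hadha (probe 1054), Acadl (probe 922, -0.66 to -0.29) and Echs1 (-0.65 to -0.28) to Hadhb (probe 241). The intervals of Acsl1 were separate from all the others, and from Cpt1a to Hadhb each gene's interval overlapped that of its neighbour. A mean of at least 1.5-fold lower with values below 0 on all 4 arrays was met by 3 of the 12 probes, both of Acsl1 and probe 677 of Cpt1a, against 3.76% of all probes.

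As deposited, the values of a probe hold the median of the array, which centring removes from both probes of a gene alike. Hadha probe 1054 was deposited at -0.88, -0.99, -0.85 and -1.02 on arrays 1 to 4, and Hadha probe 1528 at -0.83, 0.81, -0.52 and 0.69. The probes were close to each other on arrays 1 and 3 and far apart on arrays 2 and 4, where the ligation RNA carried Cy3. Cpt1a probe 677 was deposited at -1.47, -0.47, -1.22 and -0.97, and Cpt1a probe 1622 at -1.81, 1.24, -1.91 and 1.17. Hadhb probe 241 was deposited at -1.11, -0.45, -0.88 and -0.77, and Hadhb probe 1049 at -1.85, 0.69, -1.21 and 0.82. In these 2 genes as well the probe called lower was negative on all 4 arrays, and the other probe turned positive with the ligation RNA in Cy3. The probes of Acadl were deposited at -0.35, -0.56, -0.77 and -0.73 (800), at -1.33, -0.21, -1.25 and -0.64 (922), and at -1.58, 0.81, -1.50 and 0.78 (1538). Of the 12 probes, 8 were thus negative on every array as deposited, and these 8 comprise the 7 called lower and Acadl probe 800. The same count over all probes is not given here, and without centring 80.7% of all probes were called lower. Sign and call come from the same values, so their overlap is no separate support. Arrays of the same orientation were closer to each other. The median absolute gap of the centred values was 0.30 between arrays 1 and 3 and 0.14 between arrays 2 and 4 for the 12 probes, against 0.20 and 0.13 for all probes.

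**Figure D2:**
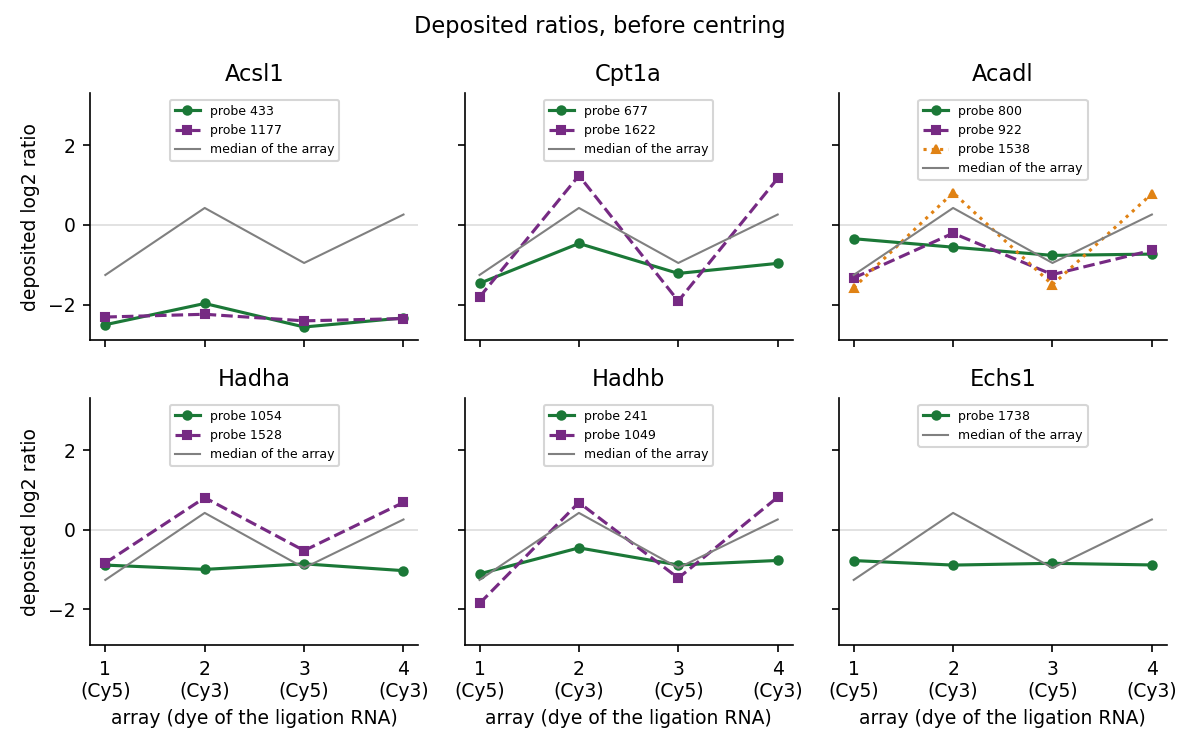
Deposited log2 ratio before centring (y axis) on arrays 1 to 4, labelled by the dye of the ligation RNA (x axis), with a panel per gene, a line per probe and the median of each array in grey. Echs1, Hadha probe 1054 and Acsl1 probe 1177 run nearly flat below 0, while Cpt1a probe 1622, Acadl probe 1538, Hadha probe 1528 and Hadhb probe 1049 swing up and down with the array median.

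The probes that stayed near 0, other than Acadl probe 800, shared a low dye term. Under the reading as Cy5 over Cy3 this same term is the ratio of ligation over sham and not a response to the dye, and the paragraphs on it hold only for the first reading. The dye term of the fit is positive where the centred ratio is higher with the ligation RNA in Cy5 than in Cy3. It was -0.81 for Cpt1a probe 1622, -0.44 for Acadl probe 1538 and -0.42 for Hadhb probe 1049, which places these 3 uncalled probes in the lowest quartile of all 1648 probes by dye term (below -0.35). Hadha probe 1528 had 0.01 (0.013) and fell in the second quartile. The 7 probes called lower had dye terms from 0.29 (Acadl probe 922) to 0.79 (Hadha probe 1054), and all of them lay in the upper 2 quartiles, as did Acadl probe 800 at 0.77.

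The same division ran through the whole array. In the lowest quartile by dye term, 4 of 412 probes were called, 0.971%, and the standard deviation of the fitted ratios was 0.074 on the log2 scale. In the highest quartile 52.4% were called, with a standard deviation of 0.53. Deposited values in the lowest quartile had a median standard deviation over the 4 arrays of 1.46, against 0.12 in the highest quartile. Members in the highest quartile numbered 4, of which 3 were called lower, where 33.0% of all probes were; those in the third quartile numbered 4, all called lower, where 22.6% of all probes were. The part that the dye term, or whatever sets it, had in the disagreement between probes was not tested, and the values hold no spot brightness.

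**Figure D3:**
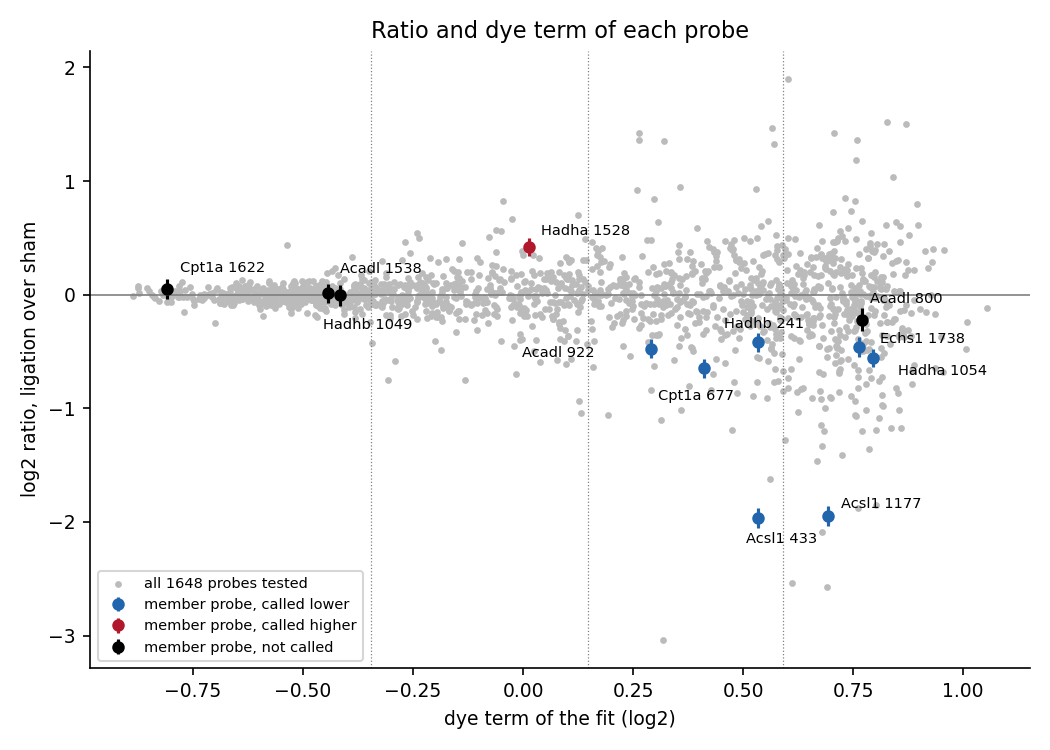
Fitted log2 ratio of ligation over sham (y axis) against the dye term of the fit (x axis, log2, the ligation ratio if the values are Cy5 over Cy3) for all 1648 probes in grey and the 12 probes of the 6 genes in colour with standard errors; dotted lines divide the probes into quartiles by dye term. The uncalled probes of Cpt1a, Acadl and Hadhb at the left lie in a narrow band around 0, and the 7 probes called lower lie to the right, where ratios are spread widely.

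The wider pathway was read from 112 further genes of fatty acid handling and its control, of which 17 were on the array, with probes averaged per gene. Of these 17, 7 were lower, 1 was higher and 9 did not pass, with a median of -0.17, where 15.4% of the 958 genes were called lower and 11.7% higher and the median was -0.01 (-0.013). Of the 6 enzymes themselves, 4 were lower by their gene means and 2 did not pass. The fatty acid translocase Cd36, which takes up fatty acids at the cell surface, was at -0.27, -0.10, -0.34 and -0.85 on arrays 1 to 4, below 0 on each but with array 4 far below the rest. It was called lower at -0.39 ± 0.10 (limma adjusted p = 0.0119), but did not pass with array 1 left out (-0.41, adjusted p = 0.0858), with array 3 left out (-0.38, adjusted p = 0.116) or with array 4 left out (-0.21, adjusted p = 0.232). The plasma membrane carnitine carrier Slc22a5 (-0.08 ± 0.08) and the peroxisomal transporter Abcd3 (-0.17 ± 0.08), which brings acyl-CoA into peroxisomes, did not pass.

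Among the cytochromes that hydroxylate fatty acids in the endoplasmic reticulum, 3 of 5 were lower and 2 did not pass. Cyp4f4 had the largest fall of the 17 genes, at -0.88 ± 0.10 (limma adjusted p = 2.46e-05), and its 2 probes were alike at -0.91 and -0.84. Cyp4b1 was at -0.45 ± 0.10 and Cyp4f1 at -0.32 ± 0.07, of which Cyp4b1 lost its call without array 3 (-0.36, adjusted p = 0.0595). The 2 probes named for both Cyp4a3 and Cyp4a2, fatty acid omega-hydroxylases known as PPAR-alpha targets in the rat, were higher, at 0.64 ± 0.10 and 0.61 ± 0.08 (limma adjusted p = 0.000263 and 4.13e-05). Of the 2 probes whose annotation repeats the symbol Cyp4a1, a further omega-hydroxylase of this family, probe 990 was lower (-0.36 ± 0.08, limma adjusted p = 0.00402) and probe 1698 did not pass (-0.08 ± 0.09, -0.082, adjusted p = 0.61). These 4 probes had more than 1 entry in the annotation and stayed outside the counts, and cDNA probes of this family can bind related transcripts.

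Of 9 regulators, 3 were lower, 1 was higher and 5 did not pass, with a median of 0.0051. Rxra, a partner of PPAR-alpha, was lower by its gene mean (-0.50 ± 0.07, limma adjusted p = 0.000196), yet of its probes only 1512 was called (-0.90 ± 0.08, adjusted p = 1.26e-06) and probe 1225 did not pass (-0.09 ± 0.08, adjusted p = 0.523). Rxrg, another retinoid X receptor, did not pass by its gene mean (0.19 ± 0.07, adjusted p = 0.0821), yet its probe 582 was called higher (0.46 ± 0.08, limma adjusted p = 0.000586) and its probe 1540 did not pass (-0.09 ± 0.08, -0.085, adjusted p = 0.545). Without centring Rxrg probe 582 was at 0.08 (0.077, adjusted p = 0.414) and probe 1540 was called lower (-0.47, limma adjusted p = 0.00206). The subunits Prkab1 (-0.31 ± 0.10) and Prkaa2 (-0.22 ± 0.08) of AMP-activated kinase, which relieves the malonyl-CoA brake on Cpt1a, were called lower near the threshold (limma adjusted p = 0.0296 and 0.049). The only probe of Prkaa2, 1860, was not called in the fit of probes (-0.22, limma adjusted p = 0.0665). Prkab1 did not pass with array 3 left out (-0.19, adjusted p = 0.253) or with array 4 left out (-0.19, adjusted p = 0.266), and Prkaa2 did not pass whichever array was left out (adjusted p from 0.0692 to 0.4, with ratios from -0.27 to -0.16). Without array 3 the count of the 17 genes called lower was 3, and without array 4 it was 4. The oxysterol receptor Nr1h2, which in the liver acts on sterol and lipid synthesis, was higher at 0.65 ± 0.07 (limma adjusted p = 2.37e-05), and stayed higher without centring (0.27, adjusted p = 0.0139).

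**Figure D4:**
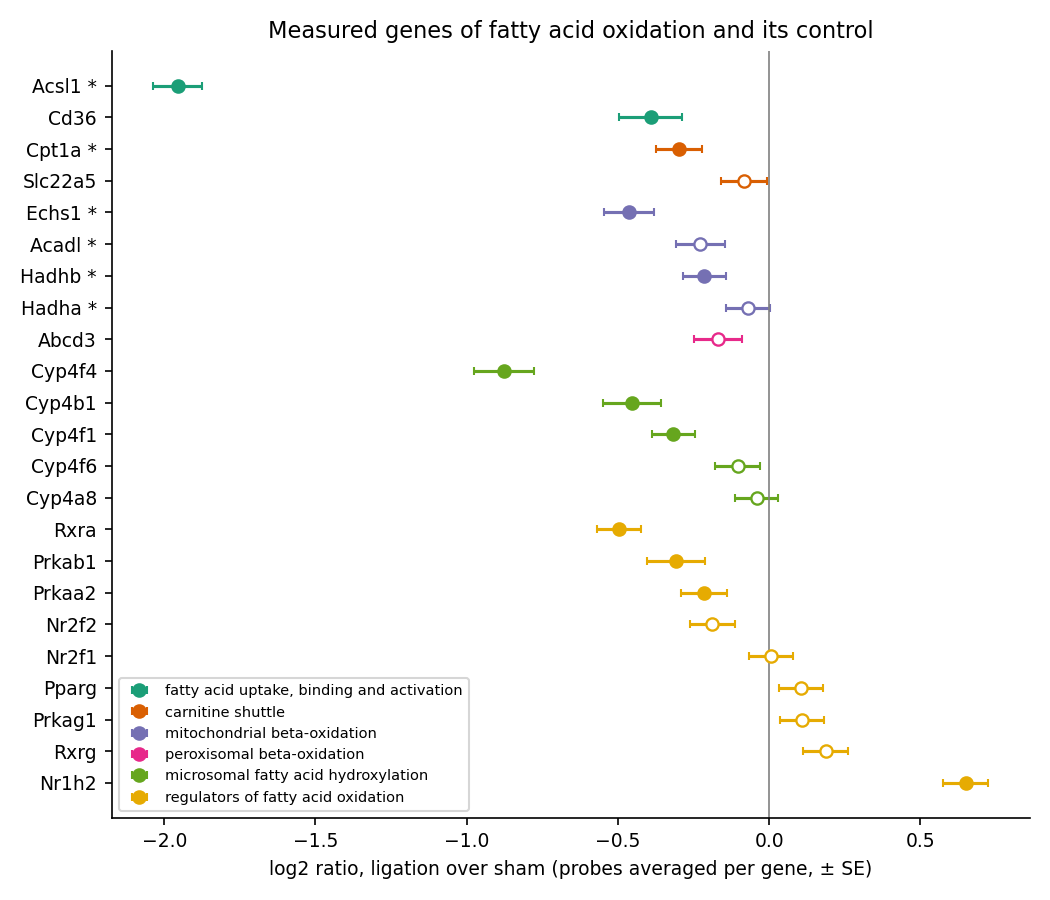
Fitted log2 ratio of ligation over sham with its standard error (x axis) for the 6 enzymes, marked with an asterisk, and the 17 other measured genes of the pathway and its control (y axis), coloured by role and with probes averaged per gene; open points did not pass the test. Acsl1 lies at -1.96, far left of the other genes, and Nr1h2 at 0.65 is the only filled point right of 0.

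In whole liver, fewer hepatocytes and less RNA per hepatocyte cannot be told apart. Of 18 listed hepatocyte markers 7 were measured, and 5 of these were called higher and none lower (limma, 1 lower at an unadjusted p under 0.05), with a median of 0.26 and values from -0.22 (Pck1) to 0.38 (Apoa1). None of the 5 was called higher by limma without centring (0 at an unadjusted p under 0.05), where their median with the other 2 was -0.13. The 6 enzymes had a median of -0.26 with centring and -0.64 without. Of 3 measured genes of the citrate cycle and respiratory chain, the mitochondrial neighbours of the pathway, none passed the test (limma, median -0.14, from -0.22 for Aco1 to -0.10 for Cox8a), although 1 had an unadjusted p under 0.05, and Aco1 was near the threshold (adjusted p = 0.0555). Leukocyte and Kupffer cell markers had 3 of 4 measured genes lower (median -0.30), and of 4 cholangiocyte markers only Anxa5, which other cells also express, was called, higher at 0.95 ± 0.08. Markers of stellate cells had 1 higher and 1 lower of 3 measured, endothelial markers 2 lower of 4, and the single blood cell marker, Pf4, was at -0.02 ± 0.08 (-0.022). The part of cell composition in the ratios of the enzymes was not tested.

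Promoter windows were found for 5 of the 6 enzymes, Acadl being the exception. The DR1 element, the direct repeat with 1 base between its copies to which PPAR-alpha and its partner bind, was searched as AGGNCANAGGNCA on both strands, and its single motif as AGGTCA, which can lie within it. The DR1 letters were in none of the 5 windows and in 0.415% of the 33469 promoters of the table. AGGTCA was in the windows of Echs1 and Hadhb, and in 16.2% of all promoters. These are matches of letters in 300 bases and say nothing of binding elsewhere.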

How the data were processed

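The values analysed are the log2 ratios that the authors deposited, 1 per probe and array, for 1936 probes on 4 arrays. The sources used here do not give scanner, background correction, normalization, direction or logarithm base; base 2 and ligation over sham were assumed. Arrays of the same dye orientation correlated at r = 0.93 and 0.94 across probes, and arrays of opposite orientation at -0.45 to -0.28. Names came from the platform's annotation, where 1432 probes had 1 symbol, 19 had several and 485 were unnamed. The array is printed in 16 blocks, and 18 positions had no name in any block; their 288 spots were treated as controls and not tested.

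Arrays were centred on their medians. Ratios were modelled in R 4.3.3 by limma 3.58.1, using a ligation term and a dye term per probe (2 residual degrees of freedom). Variances were moderated (for probes, prior SD 0.17 and 11.7 prior degrees of freedom), with Benjamini-Hochberg adjustment, at adjusted p under 0.05. In the fit of probe differences, the pairs of the 6 genes all had the same standard error (0.12), from a common variance. The fit was made on 1648 probes, on 1174 features after averaging probes of a gene (958 of them named genes), and on 699 differences between probes of the same gene. Standard errors are the moderated ones and had a median of 0.08 (0.083) for probes; the number of arrays limits the precision. The calls were tested on simulated data. The 6 genes, the lists and the tests were chosen with earlier results of these data known. All 6 enzymes were described with every probe, pathway genes were named where called or to complete a group, and the 5 genes most like Acsl1 were taken by root mean square difference. Promoter windows and their coordinates are RefSeq's, assembly GRCr8. The 16 alternatives tried included other centrings, quantile normalization, a robust prior, no dye term, other probe sets, the reading as Cy5 over Cy3, natural logarithms and leaving out each array; 2 of them were chosen after seeing the data.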

Additional observations from a re-analysis of the deposited data

Results flagged for a closer look

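Hadha probe 1528 had 1 array far from the others relative to the range of the group (ratio of the gap to the range 0.854), with array 2 at 0.38 and the other 3 arrays between 0.427 and 0.435 on the centred log2 scale. The whole range of that probe was small, with a standard deviation of 0.024. Of the 42 sets of 4 values examined in this way it was the only one. The usual rate of about 5% by chance does not hold here. The sets mix both dye orientations, and probes, gene means and probe differences overlap.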

How the results depend on the processing

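The 7 probes called lower kept their direction and their call under 14 of the 16 alternatives. The exceptions were the model without a dye term and the reading as Cy5 over Cy3. Among the 14, natural logarithms only rescale the values and could not change a call. The robust prior and the other sets of tested probes left the ratios as they were and altered only the p-values. Read as Cy5 over Cy3, 8 of the 12 probes were called higher and 3 lower, 4 enzymes were called higher and 1 lower by gene means, and 11 of the 17 pathway genes were called higher and 4 lower. Under that reading the probes were at 0.53 and 0.69 for Acsl1, 0.41 and -0.81 for Cpt1a, 0.77, 0.29 and -0.44 for Acadl, 0.76 for Echs1, 0.79 for Hadha probe 1054 and 0.53 for Hadhb probe 241. The gene means were then 0.61 for Acsl1, 0.21 for Acadl, 0.76 for Echs1, 0.40 for Hadha and 0.06 (0.058) for Hadhb, and the probe differences 1.22 for Cpt1a, 1.21 and 0.73 for Acadl, 0.78 for Hadha and 0.95 for Hadhb. Pathway genes were at 0.35 (Cyp4b1), 0.70 (Cyp4f1), 0.08 (0.085, Cd36), 0.49 (Cyp4f4), 0.41 (Prkab1), 0.54 (Rxra) and 0.07 (0.067, Prkaa2).

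Without the dye term, 0 of the 12 probes, 0 enzymes, 0 probe pairs and 0 pathway genes were called by limma in either direction, against 3, 1, 1 and 1 at an unadjusted p under 0.05; the spread between dye orientations then counts as error. Without centring, 11 probes were called lower and 0 higher (0 at an unadjusted p under 0.05), 15 pathway genes were lower, and Cpt1a probe 1622 was at -0.33 and Acadl probe 1538 at -0.37. The shift of every value by -0.38 is what that setting does. By size and sign alone, 3 probes were lower and 0 higher. With centring on the upper quartile of the dye term (added), 2 enzymes were called lower, 3 pathway genes lower and 2 higher, with Hadhb probe 1049 at 0.07 (0.066) and the Hadha mean at 0.0033. Pathway genes called higher numbered 2 with centring on named probes, with print-block centring and with the subtracted curve (added). Values near 0 changed sign for Hadhb probe 1049 (0.03, 0.028, with named probes and 0.01, 0.015, with print blocks), and for Cpt1a probe 1622 (-0.03, -0.027) and Acadl probe 1538 (-0.10, -0.099) with print blocks. The cause was not tested.

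Leaving out 1 array in turn gave 7 to 8 probes called lower and 1 higher, 2 to 4 enzymes lower, 1 to 5 probe pairs different, and 3 to 6 pathway genes lower (7 with all arrays) with 1 higher; the orientation left with a single array is assumed to vary like the other. Over these 4 settings the values that changed sign ranged from -0.05 (-0.047) to 0.15 for Cpt1a probe 1622, from -0.05 (-0.046) to 0.07 (0.068) for Acadl probe 1538, from -0.09 (-0.091) to 0.08 (0.077) for Hadhb probe 1049 and from -0.08 (-0.079) to 0.05 (0.049) for the Acsl1 probe difference. Each array carries both mixtures, so every ratio already compares them within an array. No further pairing was possible, since the labels give a single set of array numbers. With array 2 or array 4 left out, the probes of Rxra, Rxrg and the Cyp4a family all had the same standard error (0.12). Calls kept or lost in these settings thus rest on a common variance and not on each probe's own spread. No intensities were used, so signal over background is unknown.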
